A study of Mus musculus with 2 samples.

Results

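The 10 genes described here are the 3 chains of complement C1q (C1qa, C1qb and C1qc) and 7 genes used to mark macrophages that reside in tissues: Apoe, Mrc1, Pf4, Cd63, Ms4a7, Folr2 and Retnla. They were taken by symbol from the 55487 gene symbols of a single-cell RNA experiment on the mouse cecum, and all 10 were found. Cells were released from the cecum with dispase and collagenase II, sorted for CD45, the surface protein of blood-derived cells, tagged per mouse with DNA-coded antibodies and run together in 1 droplet experiment. The groups compared were Trpv1-ADC mice (2 mice) and littermate CTRL mice (2 mice). All 4 were 101-day-old males from the lines Trpv1-WT.B6 and Trpv1-Cre.B6, and all received an adeno-associated virus intraperitoneally as neonates and then CNO, a ligand of designer receptors, on alternate days, 7 injections in all. The labels do not say which line gave which mouse, and they do not name the viral payload. The study's text asks what activating Trpv1+ neurons, pain-sensing neurons that carry the heat and capsaicin channel, does to the RNA of immune cells of the cecum.

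C1q is the recognition unit of the classical complement pathway. Its A, B and C chains assemble into a bundle with globular heads that bind antibody complexes and dying cells. Unlike most complement proteins, which come from the liver, C1q is made largely by macrophages. In the gut wall, macrophages are renewed to a large part from blood monocytes, and C1q, the mannose receptor Mrc1 and the lipid carrier Apoe are acquired as monocytes mature.

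The mouse was the replicate (n = 2 per group), so an exact permutation of mice cannot give a p below 0.333. Groups that do not overlap are therefore weak evidence, and the share of all genes whose groups do not overlap was not counted. Of 23063 barcodes, 17520 passed the filters with a clear tag of 1 mouse. They gave 4430 and 4531 cells in the Trpv1-ADC mice and 4394 and 4165 in the CTRL mice, with medians of 5553 to 5690 UMIs (unique RNA molecules counted) per cell. The numbers of macrophage-like cells were 144 and 69 in Trpv1-ADC mice against 224 and 105 in CTRL mice. Monocyte-like cells numbered 66 and 62 in Trpv1-ADC mice against 96 and 81 in CTRL mice. Levels are CPM, the UMIs of a gene in a class and mouse scaled to the same total of summed UMIs. Free RNA in the droplets gives any cell a few UMIs of abundant genes, and lymphocytes, which should lack these genes, serve as that background. The macrophage-like class carried Adgre1 (F4/80) at 359 to 545 CPM, against 101 to 125 in monocyte-like cells, while the monocyte marker Ly6c2 was at 53.6 to 142, against 353 to 767. Other markers did not part these classes: Csf1r was at 423 to 506 in macrophage-like and 417 to 462 in monocyte-like cells, and the monocyte marker Ccr2 at 688 to 841 and 632 to 714. In the macrophage-like class Xcr1, a defining marker of type 1 conventional dendritic cells, was at 0 to 1.76. Although sorted for CD45, the kept cells included a cluster of 272 led by Adamdec1 and Postn and one of 234 led by Dpt and Dcn, genes of connective tissue.

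The 3 C1q genes lie side by side on chromosome 4, on the minus strand of GRCm38 (mm10, GENCODE annotation). C1qb spans chr4:136880129-136886187, C1qc chr4:136889804-136893065 and C1qa chr4:136895917-136898803, 18675 bases from end to end. Their annotated bodies do not overlap. The gap is 3616 bases between C1qb and C1qc and 2851 bases between C1qc and C1qa. Retnla, which encodes RELM-alpha, a secreted protein of alternatively activated macrophages, lies at chr16:48842551-48844461 on the plus strand. It is shown beside C1q because most of its UMIs were in cells with little Apoe and C1qa.

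The 250 bases before the RefSeq start site (GRCm38.p6) are printed 5′ to 3′ for 2 of the C1q genes and for Retnla. They show which motif matches each window holds. Capitals mark matches on either strand to 5 motifs: TATAAA (the TATA box), GAGGAAGT (SPI1, also called PU.1, the factor that defines myeloid cells), TGCTGA (the core of sites of MAF factors), TTGCNNAA (C/EBP, myeloid and acute-phase factors) and TTC with GAA after any 4 bases (STAT6, the factor downstream of interleukin 4).
C1qb, chr4:136886201-136886450, minus strand: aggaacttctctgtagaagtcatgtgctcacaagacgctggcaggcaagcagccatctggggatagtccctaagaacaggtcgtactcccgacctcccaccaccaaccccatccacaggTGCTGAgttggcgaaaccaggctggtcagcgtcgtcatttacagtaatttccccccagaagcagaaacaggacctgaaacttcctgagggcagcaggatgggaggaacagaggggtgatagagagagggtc
C1qc, chr4:136892915-136893164, minus strand: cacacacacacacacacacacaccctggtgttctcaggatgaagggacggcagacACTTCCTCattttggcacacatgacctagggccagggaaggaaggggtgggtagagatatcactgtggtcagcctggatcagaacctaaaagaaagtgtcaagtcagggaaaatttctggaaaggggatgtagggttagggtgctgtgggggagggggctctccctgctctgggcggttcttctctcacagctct
Retnla, chr16:48842359-48842608, plus strand: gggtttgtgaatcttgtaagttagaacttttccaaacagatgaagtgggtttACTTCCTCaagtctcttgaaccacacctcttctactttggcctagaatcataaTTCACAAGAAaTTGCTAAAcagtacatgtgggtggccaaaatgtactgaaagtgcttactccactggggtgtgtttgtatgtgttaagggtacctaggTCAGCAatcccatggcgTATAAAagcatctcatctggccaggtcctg

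The C1qb window held 1 match, a MAF core that begins at position -131, counted back from the start site. The C1qc window held 1 match, an SPI1 word, printed as its reverse complement, that begins at -195. Neither held TATAAA. The Retnla window held all 5 motifs, with TATAAA at -30, the MAF core at -47, C/EBP at -134, STAT6 at -145 and SPI1 at -198. These 5 matches do not overlap. Among 32851 promoter windows of the same length, 12.4% held TATAAA, 2.44% the SPI1 word, 16.1% the MAF core, 9.56% the C/EBP word and 5.85% the STAT6 word. RefSeq entries were matched for 9 of the 10 genes. RefSeq and GENCODE place some starts differently, so the C1qc and Retnla windows reach into the GENCODE gene bodies. A match is a description of letters, and no binding was measured.

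All 3 C1q chains were highest in macrophage-like cells and fell off steeply across the other classes. C1qa had 1552 and 1732 CPM in the macrophage-like class of the Trpv1-ADC mice, against 1363 and 1054 in CTRL mice. In monocyte-like cells it had 160.3 and 210.3 CPM in Trpv1-ADC mice, against 81.5 and 189.6 in CTRL mice. Every mouse's macrophage-like level was thus above every monocyte-like level. Type 2 conventional dendritic cell-like cells followed with 8.27 and 61.2 in Trpv1-ADC mice, against 73.9 and 111 in CTRL mice, which overlaps the monocyte-like range. Type 1 conventional dendritic cell-like cells (0 to 48.0 over the 4 mice) and migratory dendritic cell-like cells (0 to 42.4) could not be ordered against each other.

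The lymphocyte background of C1qa was 5.80 and 5.66 CPM in Trpv1-ADC mice, against 6.61 and 8.23 in CTRL mice. That is 0.492% of the macrophage-like level on average over the 4 mice. C1qb and C1qc lymphocytes stood at a like share, 0.497% and 0.472%. Macrophage-like cells held 59.9% of all C1qa UMIs, 57.3% of those of C1qb and 61.6% of those of C1qc. Unnamed myeloid clusters held another 25.0%, 28.4% and 24.5% of them.

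The other 7 genes did not share one pattern. Apoe, the apolipoprotein that carries lipid out of macrophages, averaged 4950 ± 1041 CPM in the macrophage-like class of Trpv1-ADC mice and 3927 ± 518 in that of CTRL mice (SD, n = 2 each). It was also high in monocyte-like cells, at 1856 and 1782 in Trpv1-ADC mice against 1226 and 1405 in CTRL mice. Unlike C1q, Apoe was therefore already abundant in cells with little C1q. Its lymphocyte level was 1.32% of the macrophage-like level, above the share of the C1q chains.

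Mrc1, the mannose receptor CD206, was highest in macrophage-like cells, with 1151 and 748 CPM in Trpv1-ADC mice against 1609 and 1043 in CTRL mice. Its next level was in type 2 conventional dendritic cell-like cells, with 334 and 199 in Trpv1-ADC mice against 661 and 277 in CTRL mice. Monocyte-like cells had 35.6 to 86.3, so for Mrc1, in contrast to C1qa, the dendritic class stood above the monocyte-like class in every mouse. Pf4, a chemokine of platelets that some tissue macrophages also make, had 309 to 453 in macrophage-like cells against 0 to 9.89 in monocyte-like cells. Ms4a7, a membrane protein of macrophages, likewise ranged from 202 to 348 in macrophage-like cells and from 8.09 to 24.3 in monocyte-like cells.

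Cd63, a tetraspanin of lysosomes and secretory granules, broke from the others. It was highest in migratory dendritic cell-like cells, at 415 and 640 CPM in Trpv1-ADC mice against 704 and 551 in CTRL mice. Those mice held only 9 and 22 such cells in the Trpv1-ADC group and 28 and 11 in the CTRL group, so no test was made. Macrophage-like cells had 110.4 to 139.8. Only 6.22% of all Cd63 UMIs were in macrophage-like cells, and 67.3% were in the remaining cells, outside the myeloid clusters and the lymphocytes. Most of the latter were in the connective tissue clusters led by Adamdec1 and Postn (1976 Cd63 UMIs) and by Dpt and Dcn (1314 UMIs). The highest level among those cells, 1789 CPM, was in a cluster of 20 mast cells led by Mcpt1, Mcpt2 and Cpa3, with 400 UMIs. Most Cd63 RNA in these data was thus outside the macrophage-like class.

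Folr2, the folate receptor beta of resident macrophages, was sparse, with 855 UMIs in all kept cells. Its levels in macrophage-like cells were 85.3 and 155 CPM in Trpv1-ADC mice, against 74.7 and 40.7 in CTRL mice. Those in monocyte-like cells were 291 and 72.8 in Trpv1-ADC mice, against 3.20 and 116.7 in CTRL mice, so the 2 classes overlapped. A single cell held 117 of the 147 Folr2 UMIs in the monocyte-like cells of Trpv1-ADC 1, and another all 36 of those of Trpv1-ADC 2. In type 2 conventional and migratory dendritic cell-like cells Folr2 had no UMI in any mouse.

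**Figure D1:**
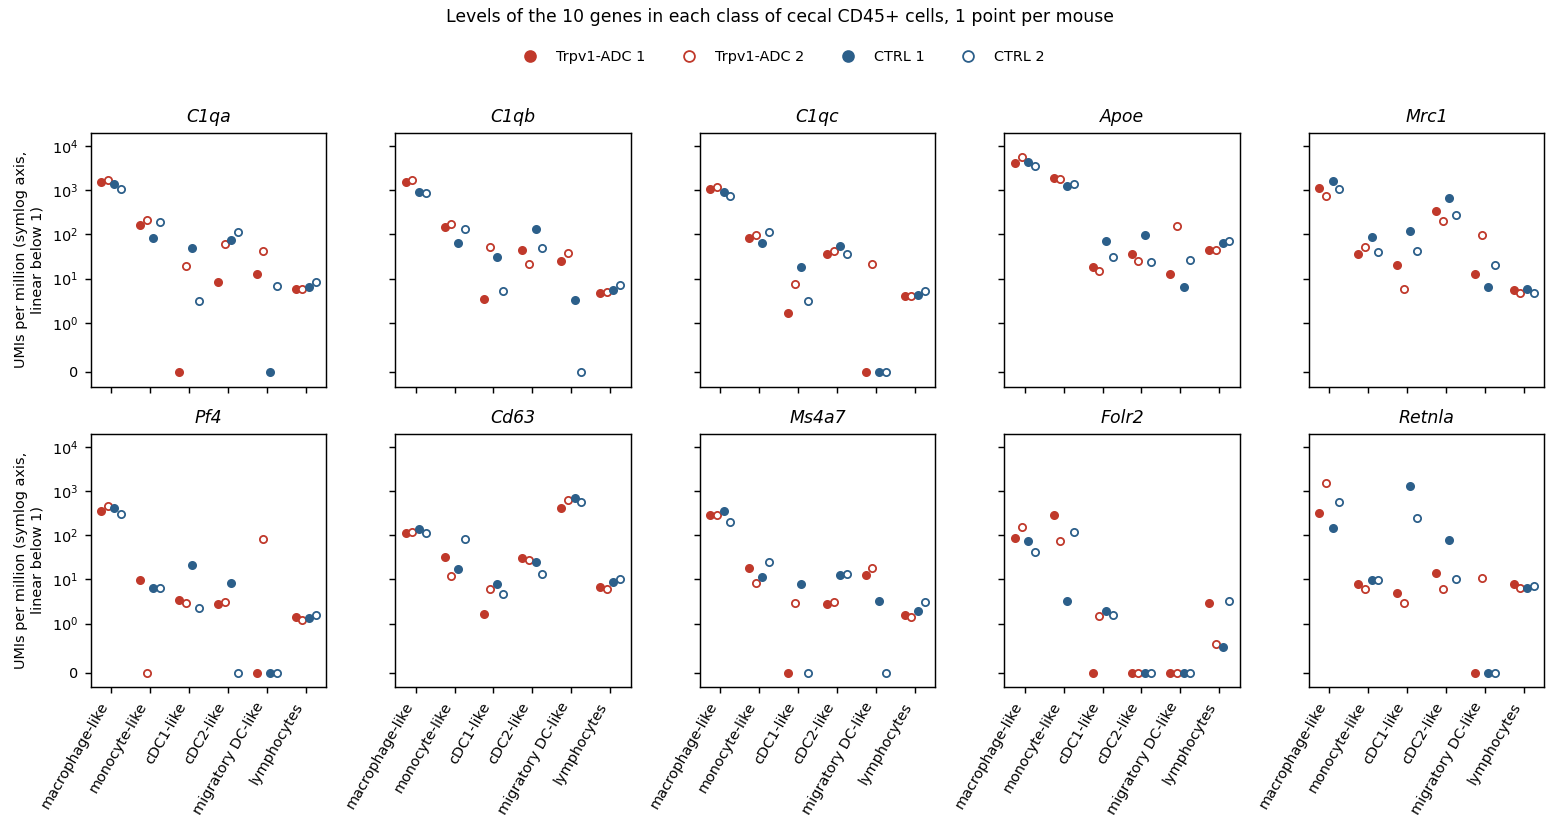
Level of each gene in CPM (vertical, symmetric log axis that is linear below 1) in 6 classes of cells (cDC1 and cDC2 are type 1 and type 2 conventional dendritic cells), with 1 point per mouse, Trpv1-ADC in red and CTRL in blue. The C1q chains, Pf4 and Ms4a7 are highest in macrophage-like cells in all 4 mice, Apoe is also high in monocyte-like cells, Cd63 peaks in migratory dendritic cell-like cells, and Folr2 and Retnla scatter between mice.

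The macrophage-like class was made of 4 clusters with different amounts of these genes. Cluster M4 was led by Cbr2, Ccl8 and the haemoglobin scavenger receptor Cd163 besides Pf4 and C1q, and held 145 cells. Over the 4 mice it had 2617 CPM of C1qa, 6643 of Apoe, 2347 of Mrc1, 1039 of Pf4 and 463 of Ms4a7. Cluster M8, led by Scnn1a, Dgkq and P2rx7, had 1178 of C1qa and 178 of Pf4. Cluster M2, led by the acute-phase gene Saa3 with Gab1 and Thbs1, had 648 of C1qa and 29.7 of Pf4. The members were left out of the genes used for clustering, and these levels are given as a description with no test.

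The clusters were shared unequally between the mice. M8 held 33.3% and 66.7% of the macrophage-like cells of the Trpv1-ADC mice, against 4.91% and 5.71% in CTRL mice. M2 held 19.4% and 7.25% in Trpv1-ADC mice, against 29.5% and 59.0% in CTRL mice. M8 shares did not overlap between the groups, and M2 shares did not either. M4 shares overlapped, at 35.4% and 13.04% in Trpv1-ADC mice against 29.0% and 19.0% in CTRL mice. M6, a cluster of low depth (median 2063 UMIs per cell), took 36.6% of the class in CTRL 1 and 11.8% to 16.2% in the other mice. M2 scored 0.71 for macrophage and 0.77 for monocyte markers (mean standardised level), and the margin that put such near ties in the macrophage-like class was set after the clusters were seen. M8 scored 0.98 and 0.58.

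Clusters that met no name also carried members. M7 (116 cells, median 11751 UMIs per cell, led by Retnla, Lpl, Lyz1 and Fn1) had 10982 CPM of Retnla and 1767 of Mrc1 but only 443 of Apoe and 252 of C1qa. M13 (63 cells, median 1680 UMIs, led by Ccl8) had 10770 of Apoe and 2557 of C1qa. M11 (93 cells, median 11561 UMIs, all with UMIs of lymphocyte markers) had 1078 of C1qa. Among monocyte-like cells, M10 (led by Ly6i, Adgre4 and Ace, a patrolling monocyte gene) had 480.4 of C1qa, while M0 (led by Chil3, Hp and Vcan) had 12.9. Both had about the same Apoe, 1512 in M10 and 1552 in M0.

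**Figure D2:**
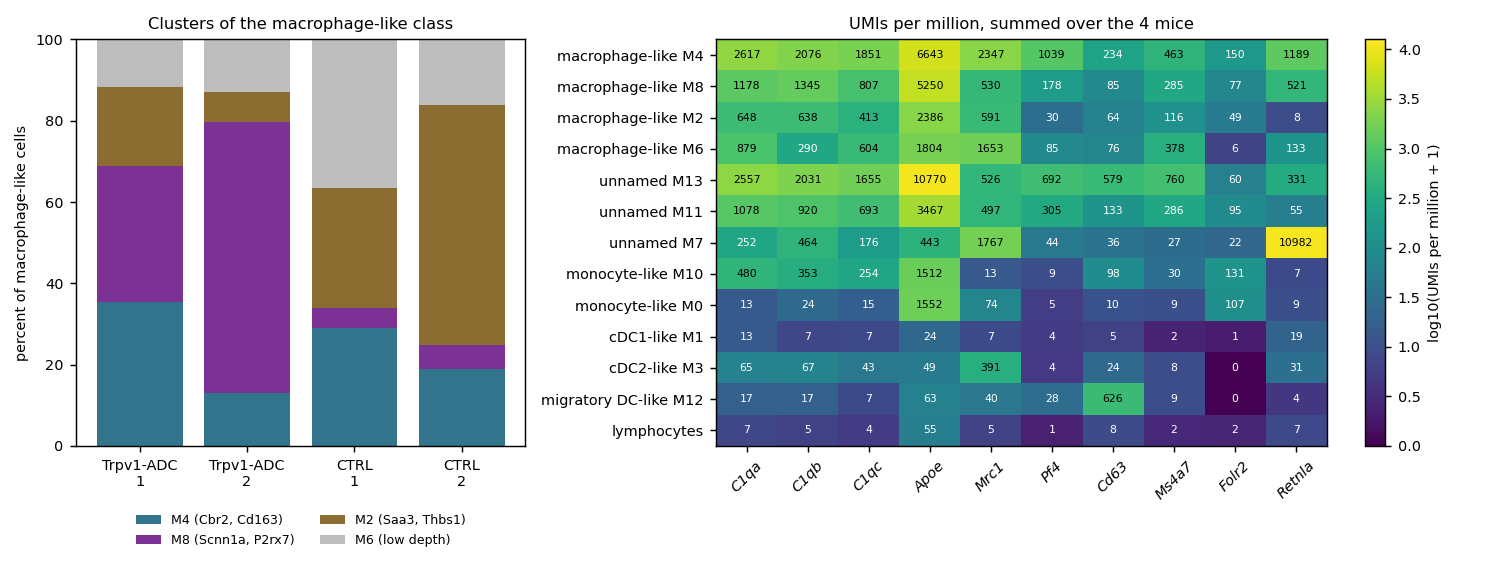
Left, the percent of macrophage-like cells in each of its 4 clusters per mouse; right, the level of each gene (CPM summed over the 4 mice, colour on a log10 scale) in myeloid clusters and lymphocytes. M8 makes up 33.3% and 66.7% of the class in Trpv1-ADC mice against 4.91% and 5.71% in CTRL mice, and Retnla reaches 10982 in the unnamed cluster M7.

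In macrophage-like cells, C1qb was the only one of the 10 genes past the threshold between the groups, and it rose. C1qb had 1571 and 1750 CPM in Trpv1-ADC mice, against 905 and 879 in CTRL mice. The difference between the groups was far larger than that between the mice of a group. The log2 fold change was 0.84 ± 0.18 (SE; edgeR quasi-likelihood test with Benjamini-Hochberg adjustment over 7888 genes, adjusted p = 0.0303). Of all genes tested in this class, 2.66% were called, 0.444% higher and 2.22% lower, so 1 of 10 members called is a small number on which no group statement about the members can rest. The median log2 fold change was 0.33 over the 10 members and 0.01 over all genes.

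The other 2 chains pointed the same way without passing. C1qa had a log2 fold change of 0.39 ± 0.19 (edgeR adjusted p = 0.305), with both Trpv1-ADC mice above both CTRL mice. C1qc, at 1089 and 1157 CPM in Trpv1-ADC mice against 927 and 750.1 in CTRL mice, gave 0.37 ± 0.19 (edgeR adjusted p = 0.326). The C1qb call was lost without CTRL 1 (log2 fold change 0.82, edgeR adjusted p = 0.0590) and without CTRL 2 (0.85, edgeR adjusted p = 0.0829). Without the low-depth cluster M6 the fold change was 0.75 (edgeR adjusted p = 0.0624) and without M4 1.05 (edgeR adjusted p = 0.104), so the call was lost while the direction was kept. With monocyte-like and C1q-rich unnamed cells added, it was 0.69 whichever class M2 is given (edgeR adjusted p = 0.0446). The unnamed clusters were picked by their level of C1q, the genes under test, so this pass is no independent support. Like the fits without M6 and without M4, it was not planned.

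Since different clusters made up the class in the groups, C1qb was also read within clusters. In M4 it had 2515 and 3311 CPM in Trpv1-ADC mice, against 1790 and 1298 in CTRL mice. In M8 the levels were 1266 and 1592 in Trpv1-ADC mice, against 688 and 667 in CTRL mice. Both clusters thus separated the groups, although M8 had only 11 and 6 cells in the CTRL mice and M4 only 9 in Trpv1-ADC 2. In M2 the levels were 697 and 804 in Trpv1-ADC mice, with 28 and 5 cells, against 441 and 786 in CTRL mice, and overlapped. In the low-depth M6 they were 246 and 269 in Trpv1-ADC mice, against 234 and 532 in CTRL mice, and overlapped.

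**Figure D3:**
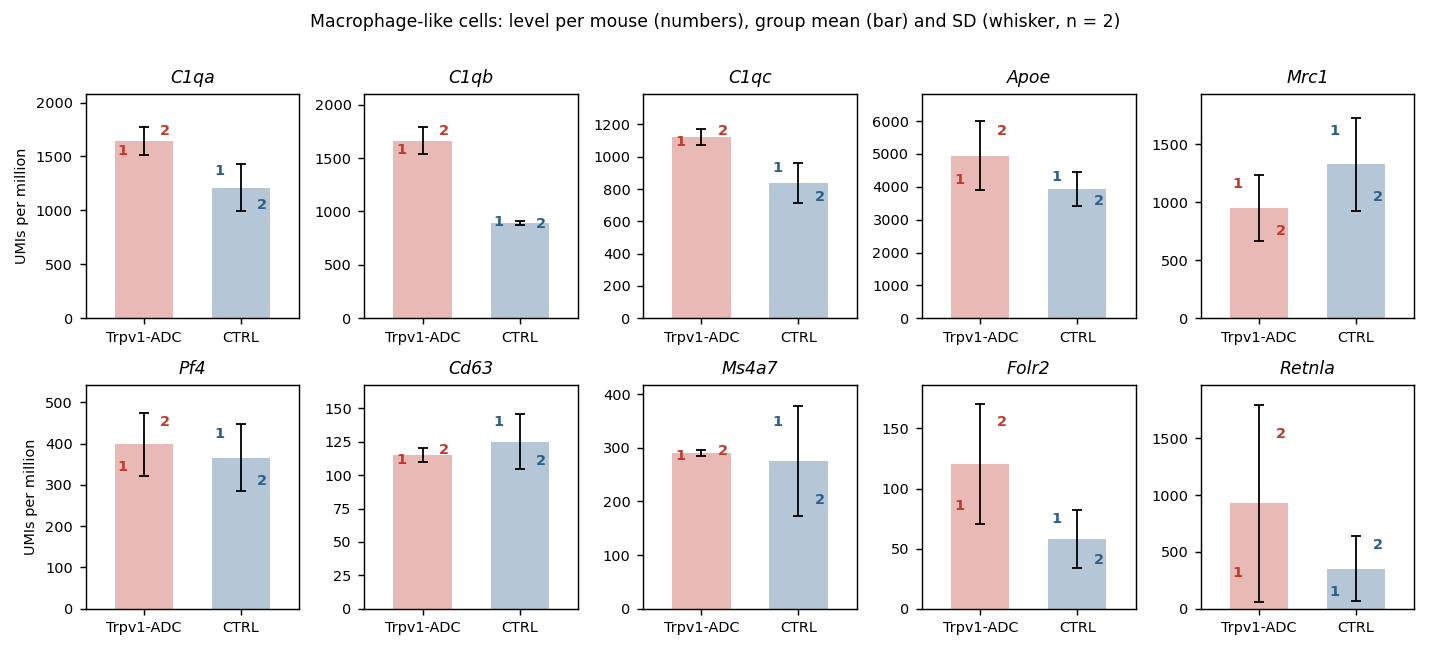
Level of each of the 10 genes in macrophage-like cells, in CPM on axes that start at 0; numbers are the mice, bars the group means and whiskers the SD (n = 2). Both Trpv1-ADC mice lie above both CTRL mice for C1qa, C1qb, C1qc and Folr2, and the SD of C1qb is small beside the gap between its groups. With 2 mice a group such separation is weak evidence, and its share over all genes was not counted.

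C1qb also took a larger share among the 3 chains. Of all C1q UMIs of macrophage-like cells, C1qb made up 37.3% and 37.7% in Trpv1-ADC mice, against 28.3% and 32.8% in CTRL mice. The 95% exact binomial intervals were 35.8% to 38.9% and 35.8% to 39.7% in Trpv1-ADC mice, against 26.9% to 29.8% and 30.7% to 34.8% in CTRL mice, and cover counting error only. Within M4 the share was 34.9% and 38.5% in Trpv1-ADC mice, against 28.4% and 26.8% in CTRL mice. In lymphocytes, whose C1q UMIs serve as the background, it was alike in all 4 mice, 32.5% and 33.6% in Trpv1-ADC mice against 33.1% and 34.4% in CTRL mice.

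The balance of the chains differed between clusters as well. C1qb took 52.0% of the C1q UMIs in the Retnla-led M7, 40.4% in M8, 37.5% in M2, 31.7% in M4 and 16.4% in the low-depth M6. M6 stood at the low end with 587 C1q UMIs in all, 49.6% of them C1qa. In M2 the share was 37.1% and 30.4% in Trpv1-ADC mice against 38.2% and 38.1% in CTRL mice. Both Trpv1-ADC mice thus lay below both CTRL mice there, the opposite order to that in the whole class. The exact binomial intervals of these M2 shares overlapped between the groups, and Trpv1-ADC 2 had only 112 C1q UMIs in M2. The part of cell quality in these shares was not tested; without M6 the C1qb fold change in the class was 0.75, as given above. The chain shares were looked at after the C1qb result was known and carry no test.

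**Figure D4:**
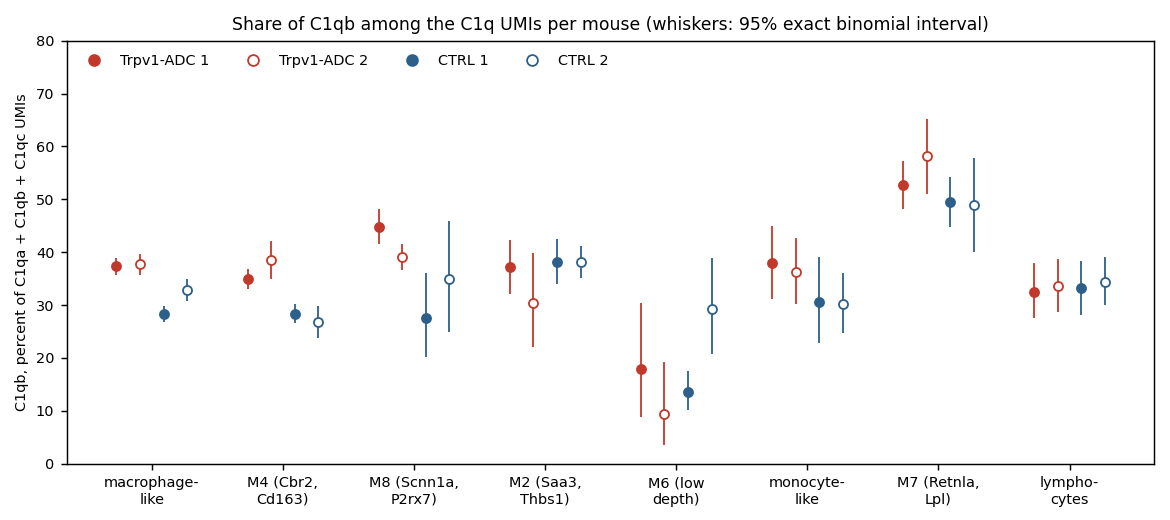
Percent of C1qb among the summed UMIs of C1qa, C1qb and C1qc per mouse (points) with 95% exact binomial intervals (whiskers), in the macrophage-like class, its 4 clusters, monocyte-like cells, the unnamed cluster M7 and lymphocytes. Trpv1-ADC mice lie above CTRL mice in the macrophage-like class, M4, M8, monocyte-like cells and M7. In M2 they lie below the CTRL mice, in M6 the groups overlap, and the 4 mice are alike in lymphocytes.

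The remaining members of the macrophage-like class did not pass. Mrc1 had a log2 fold change of -0.52 ± 0.24 (edgeR adjusted p = 0.286) and overlapping groups. Apoe gave 0.28 ± 0.20, Pf4 0.06 ± 0.22, Ms4a7 0.02 ± 0.23 and Cd63 -0.18 ± 0.21, each with overlapping groups. A p above the threshold does not show that they were alike. Folr2 gave 0.94 ± 0.34 (edgeR adjusted p = 0.193), with both Trpv1-ADC mice above both CTRL mice. Single cells weighed heavily on it: the richest cell held 44.9% and 53.1% of the Folr2 UMIs in Trpv1-ADC mice, against 17.6% and 35.5% in CTRL mice. Without that cell in each mouse the levels were 47.5 and 74.1 CPM in Trpv1-ADC mice, against 61.7 and 26.8 in CTRL mice, and the groups overlapped.

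Retnla was the most uneven member. Its levels in macrophage-like cells were 317 and 1540 CPM in Trpv1-ADC mice, against 149 and 557 in CTRL mice. No group difference stood out from this scatter (log2 fold change 1.33 ± 1.38, edgeR adjusted p = 0.729). In Trpv1-ADC 2 only 4 of 69 cells had a Retnla UMI, and 3 of them held 99.9% of its 803 UMIs. In CTRL 2 the 3 richest of 105 cells held 91.7%. Most Retnla, 79.3% of all its UMIs, was in unnamed myeloid cells, nearly all of it in M7, where 18 of 21 and 9 of 10 cells of the Trpv1-ADC mice and 51 of 64 and 20 of 21 cells of the CTRL mice had a UMI. M7 levels were 13344 and 18043 in Trpv1-ADC mice, against 7816 and 13422 in CTRL mice. M7 made up 0.474% and 0.221% of the kept cells in Trpv1-ADC mice, against 1.46% and 0.504% in CTRL mice. Trpv1-ADC 1 and CTRL 2 held the same number of M7 cells, 21, and no group difference in its size was tested.

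RNA of other cell types and depth also varied between the macrophage-like samples. The summed level of 12 T cell markers was 99.5 and 97.8 CPM in Trpv1-ADC mice, against 168 and 135 in CTRL mice, and all 12 had a UMI. That of 12 B cell markers was 299 and 288 in Trpv1-ADC mice, against 389 and 248 in CTRL mice. Median depth was 6098 and 7850 UMIs per cell in Trpv1-ADC mice, against 4486 and 7165 in CTRL mice. With cells that carried 2 or more T cell marker UMIs left out, a choice made after the data were seen, C1qb had a log2 fold change of 0.87 (edgeR adjusted p = 0.0298). The part of depth in the C1qb result was not tested.

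In monocyte-like cells no member passed, of 7 that could be tested (edgeR; 2 of them at an unadjusted p under 0.05, none by DESeq2 with 1 at an unadjusted p under 0.05). Of all 6217 genes tested there, 0.370% were called, 0.257% higher and 0.113% lower. At an unadjusted p under 0.05 were 642 of the 6217 genes by edgeR and 170 by DESeq2. Apoe came nearest, with 1856 and 1782 CPM in Trpv1-ADC mice against 1226 and 1405 in CTRL mice and a log2 fold change of 0.51 ± 0.11 (edgeR adjusted p = 0.135). Both Trpv1-ADC mice lay above both CTRL mice, and 1 cell held 42.3% of the Apoe UMIs of CTRL 2. Without the richest cell of each mouse the levels were 1755 and 1659 in Trpv1-ADC mice, against 1133 and 841 in CTRL mice. C1qb had 148 and 173.9 in Trpv1-ADC mice, against 63.9 and 131 in CTRL mice (log2 fold change 0.77 ± 0.29, edgeR adjusted p = 0.412). The C1qb UMIs of the CTRL mice came mostly from 1 cell each, 72.5% in CTRL 1 and 71.6% in CTRL 2, against 38.7% and 32.6% for the richest cells in the Trpv1-ADC mice. Without these cells C1qb had 93.5 and 122 in Trpv1-ADC mice, against 17.9 and 38.7 in CTRL mice. Pf4, Ms4a7 and Retnla were too low to test.

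The group effect was compared between the 2 classes with the mouse as a term of the fit. No member differed (edgeR, 10 tested), and 0.0133% of 7535 genes did. At an unadjusted p under 0.05 were 0 members and 739 genes. For C1qb the effect in macrophage-like minus that in monocyte-like cells was 0.05 ± 0.32 in log2, and for Apoe -0.23 ± 0.24. The largest among the members was Retnla with 1.74 ± 0.87 (edgeR adjusted p = 0.557). These errors do not exclude a difference.

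**Figure D5:**
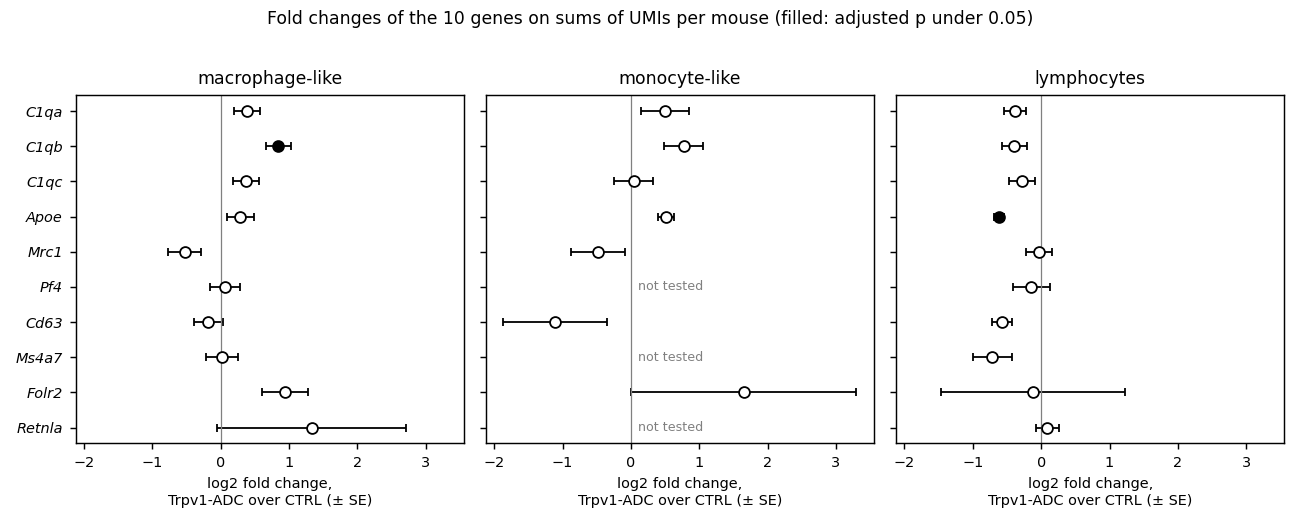
Log2 fold change of Trpv1-ADC over CTRL (points) with its SE (whiskers) for the 10 genes in macrophage-like cells, monocyte-like cells and lymphocytes, from sums of UMIs per mouse; filled points passed the edgeR adjusted threshold. C1qb in macrophage-like cells (0.84) and Apoe in lymphocytes (-0.61) are filled, and Folr2 and Retnla have wide errors where few cells held their UMIs.

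No member passed in type 1 conventional dendritic cell-like cells either (edgeR, 5 tested), against 0.848% of 7551 genes called, 0.424% higher and 0.424% lower. At an unadjusted p under 0.05 were 2 of the 5 members and 771 of the 7551 genes. DESeq2 called 1 member, Retnla, and 42 genes in all. Retnla had 5.04 and 2.96 CPM there in Trpv1-ADC mice, against 1296 and 240 in CTRL mice. The CTRL levels came from few cells: 1 cell held 857 of 1322 Retnla UMIs in CTRL 1 and 1 cell 215 of 313 in CTRL 2. Nearly all of them, 1281 and 308, were in cluster M14, led by cell division genes such as Ube2c and Top2a, with 16 and 18 cells in the CTRL mice. The level was not stable to the processing: its mean over the 4 mice was 386 CPM, but 5.29 with HTODemux to assign mice, 28.4 with stricter cells and 15.6 without the doublet caller. Mrc1 likewise averaged 46.5, but 6.84, 9.10 and 11.51 under these. Mrc1 went the same way, at 20.2 and 5.92 in Trpv1-ADC mice against 118 and 42.1 in CTRL mice (log2 fold change -2.60 ± 0.83, edgeR adjusted p = 0.414). So did Lpl, the lipoprotein lipase that also leads M7, which fell (log2 fold change -4.71 ± 0.65, edgeR adjusted p = 0.0106), with 1.68 and 4.44 in Trpv1-ADC mice against 123 and 52.9 in CTRL mice. How far single cells or the processing set the Lpl value was not tested. Apoe had 18.5 and 14.8 in Trpv1-ADC mice, against 69.6 and 31.4 in CTRL mice (log2 fold change -1.56 ± 0.43, edgeR adjusted p = 0.115). In the same cells 7 of 28 stress genes rose, with a median of 0.30 against 0.00 over all genes, led by the heat-shock genes Hspa1a (log2 fold change 1.82 ± 0.12, edgeR adjusted p = 3.86e-08) and Hspa1b (1.79 ± 0.12) and by Jun (1.69 ± 0.18). How far stress or RNA of other cells set the members' levels was not tested.

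Type 2 conventional dendritic cell-like cells had 6 testable members and none passed by edgeR. Of 4929 genes 0.0812% were called, 0.0609% higher and 0.0203% lower. At an unadjusted p under 0.05 were 2 of the 6 members and 384 of the 4929 genes. DESeq2 called 0 members and 3 genes, with 1 member and 103 genes at an unadjusted p under 0.05. The lowest edgeR p among the members was that of C1qb, which here leaned the other way than in macrophage-like cells. It had 44.1 and 21.4 CPM in Trpv1-ADC mice against 131 and 49.1 in CTRL mice (log2 fold change -1.45 ± 0.49, edgeR adjusted p = 0.442).

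In lymphocytes all 10 could be tested, and Apoe fell, against 1.17% of 16553 genes called, 0.224% higher and 0.942% lower. Its levels were 43.8 and 44.8 CPM in Trpv1-ADC mice, against 64.8 and 69.6 in CTRL mice, a log2 fold change of -0.61 ± 0.08 (edgeR adjusted p = 0.0108). The call was lost without CTRL 2 (-0.57, edgeR adjusted p = 0.0650). This class pools T, B, innate lymphoid and plasma cells. Its summed level of 10 plasma cell markers was 4375 and 2108 CPM in Trpv1-ADC mice, against 8968 and 8803 in CTRL mice. How far this mix of cells set the Apoe level was not tested. In macrophage-like and monocyte-like cells the Apoe fold change was positive and did not pass. The other 9 did not pass, with C1qa at -0.39 ± 0.16 and C1qb at -0.39 ± 0.18, so the C1q background in lymphocytes was not higher in Trpv1-ADC mice.

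The share of cells with a C1q UMI was read after thinning each cell to 1500 UMIs, which left out 13 and 4 shallower macrophage-like cells of the Trpv1-ADC mice and 30 and 6 of the CTRL mice. At least 1 chain was then seen in 100 of 131 and 39 of 65 cells of the Trpv1-ADC mice, against 132 of 194 and 61 of 99 cells of the CTRL mice, means of 68.2% in Trpv1-ADC and 64.8% in CTRL mice, and the groups overlapped (exact two-sided permutation p = 1.00). Without thinning the shares were 76.4% and 63.8% in Trpv1-ADC mice, against 72.3% and 66.7% in CTRL mice. The lymphocyte share at the same depth was 1.61% and 1.78% in Trpv1-ADC mice, against 2.32% and 2.43% in CTRL mice. Unthinned, lymphocytes had a median depth of 5407 to 5573 UMIs. Monocyte-like cells had 15.2% and 16.1% in Trpv1-ADC mice, against 14.0% and 6.25% in CTRL mice. In CTRL 2 this was 5 of 80 cells, with a 95% exact binomial interval of 2.06% to 13.99% that covers the lymphocyte share, while the other 3 mice lay above it.

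All 3 chains in the same cell were found more often in the Trpv1-ADC mice, in 48.1% and 40.0% of the macrophage-like cells against 29.9% and 23.2% in CTRL mice. The groups did not overlap, and p = 0.333 is the smallest the exact two-sided permutation allows. Without thinning the shares drew closer, 59.7% and 52.2% in Trpv1-ADC mice against 48.7% and 50.5% in CTRL mice. In lymphocytes the thinned share was at most 0.0867% in any mouse.

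Within the macrophage-like class, the other members went with C1q cell by cell to different degrees. Of 332 thinned cells with a C1q UMI, 71.4% had one of Mrc1, 30.1% of Pf4, 34.3% of Ms4a7 and 20.2% of Cd63. Among the 157 cells without a C1q UMI these shares were 28.7%, 1.27%, 8.28% and 3.82%. Apoe separated them least, at 85.8% and 76.4%, and Folr2 (5.72% and 1.91%) and Retnla (8.43% and 1.91%) were rare in both. The cells come from 4 mice pooled, so these shares are a description of the cells.

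Genes of related pathways and cell types were counted from 8 lists that leave out the 10 members. In macrophage-like cells 1389 of all 7888 genes tested had an unadjusted p under 0.05 (edgeR). Of 38 complement genes in the files, 16 could be tested in macrophage-like cells and none passed (edgeR, 1 at an unadjusted p under 0.05; median log2 fold change -0.08, all genes 0.01). The smallest p was that of Cfp, properdin, which stabilises the alternative pathway, with 233 and 247 CPM in Trpv1-ADC mice against 156 and 147 in CTRL mice (log2 fold change 0.61 ± 0.19, edgeR adjusted p = 0.112). Cd93, a receptor once described as binding C1q, had 209 and 223 in Trpv1-ADC mice, against 264 and 284 in CTRL mice, and did not pass. No complement gene outside the C1q chains was thus called in this class.

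Of 45 tested genes of the resident macrophage list, 2 fell, none rose and the median was -0.03. Ccl7, a monocyte attractant, fell to 141 and 94.0 CPM in Trpv1-ADC mice, against 375 and 242 in CTRL mice (log2 fold change -1.42 ± 0.25, edgeR adjusted p = 0.0116). The groups did not overlap. Of 18 tested genes of alternative activation, with a median of -0.28, Chil3 rose (1.40 ± 0.33, edgeR adjusted p = 0.0420) and Klf4 fell (-1.35 ± 0.24, edgeR adjusted p = 0.0133). Chil3 is also among the monocyte markers used to name clusters. It had 181 to 687 CPM in monocyte-like cells, against 22.9 to 102 in macrophage-like cells. Of 34 lysosome and lipid genes, with a median of -0.10, 1 passed: Abca1, the cholesterol exporter that loads Apoe, which fell (-0.94 ± 0.22, edgeR adjusted p = 0.0417).

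Of 27 tested inflammatory genes 10 fell and none rose, with a median of -0.96 against 0.01 for all genes, of which 2.22% fell. The groups drew the class from different clusters (M2 and M8), and neither these genes nor those of the other lists were read within clusters. Cxcl1, a neutrophil chemokine, fell to 13.1 and 17.3 CPM in Trpv1-ADC mice, against 94.9 and 53.9 in CTRL mice (log2 fold change -2.39 ± 0.36, edgeR adjusted p = 0.00986). Cd83, Tnfaip3 and Cebpb were the next by p, at -1.55 ± 0.24, -1.27 ± 0.20 and -1.18 ± 0.20. Of 28 stress genes 2 rose, the heat-shock gene Hspa1a (0.99 ± 0.18) and its partner Bag3 (1.02 ± 0.23), and Zfp36 fell (-1.12 ± 0.24); the median was -0.16. Of 11 tested lymphocyte markers and 4 tested non-immune markers none passed (edgeR), with medians of -0.45 and -0.56. At an unadjusted p under 0.05 were 2 and 1 of them, against 1389 of all 7888 genes.

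In monocyte-like cells none of the 13 complement, 27 resident macrophage, 15 alternative activation, 33 lysosome and lipid or 24 inflammatory genes tested passed (edgeR). At an unadjusted p under 0.05 were 3, 6, 2, 6 and 7 of them, against 642 of all 6217 genes. Of 26 stress genes 7 rose, with a median of 0.65 against 0.01 for all genes. Hspa1b, a heat-shock chaperone, had 3184 and 4053 CPM in Trpv1-ADC mice, against 1251 and 1768 in CTRL mice (log2 fold change 1.31 ± 0.17, edgeR adjusted p = 0.0190). Heat-shock genes were thus higher in Trpv1-ADC mice both here and in type 1 conventional dendritic cell-like cells. Their part in the members' values was not tested.

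The mean of the 3 C1q chains was compared with other genes over 18 points: 16 myeloid clusters, lymphocytes and the remaining cells. The gene whose pattern was most like it was C3ar1, the receptor of the complement fragment C3a (Pearson r = 0.950 on log2 values averaged over the mice). Ccl12 (0.920), Adgre1 (0.915), Ctsb (0.905), Fcgr2b (0.90), Ctsc (0.890), Clec4a1 (0.887) and G530011O06Rik (0.885) came next. Of the other members, Ms4a7 (0.921) and Pf4 (0.896) were the most alike and Retnla (0.467) and Cd63 (0.476) the least. For Retnla the nearest were Fcrls (0.913), Cd163 (0.854), Lpl (0.811), Lyz1 (0.798), Plxdc2 (0.771), Dok2 (0.761), Rap1gds1 (0.755) and Pdgfc (0.737). The points share 1 experiment and its free RNA, and the values are descriptions with no test.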

How the data were processed

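The deposited matrices give, for each barcode, the authors' raw UMI counts of every gene and raw hashtag counts, from 1 droplet run in which 4 mice were pooled. Per the submitters' processing notes, Cell Ranger, Seurat and the build mm10 were used, without versions; the labels disagree on whether the 5' or the 3' kit was used, and the annotation is not given in the sources used here. The filter asked for 500 or more UMIs, 200 or more genes and no more than 10% of UMIs from mitochondrial genes, and 22729 barcodes passed. A mouse was assigned where its tag had at least 10 counts and 3 times the next (19571), and Scrublet (scanpy 1.11.5, expected rate 0.2) removed 2051. Per the labels, hashtags 7 and 9 mark Trpv1-ADC 1 and 2, and 1 and 3 mark CTRL 1 and 2. Cells were clustered (2000 variable genes without the members, 30 components, 15 neighbours, Leiden with leidenalg 0.10.2, resolution 1), and myeloid cells again. Clusters were named from 175 markers; near ties between monocyte and macrophage (margin 0.3, set after the clusters were seen) went to macrophage-like, and weak scores (under 0.5), lymphocyte mixes, low depth without markers or leading genes of another type left a cluster unnamed.

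Counts were summed per mouse and class with at least 20 cells in every mouse and tested with edgeR 4.0.16 (TMM, filterByExpr, robust quasi-likelihood, Benjamini-Hochberg over the class's genes, 0.05, two-sided). No covariate was used. Alternatives included DESeq2 1.42.0, RLE factors, no filter, a replicate block, each mouse left out, HTODemux (Seurat 5.3.0) and stricter or looser cells and clusters. The test was checked on simulated data. UMI counts sum to 521279 to 1137560 per mouse in macrophage-like and 494467 to 625669 in monocyte-like cells, which sets the counting error. The spread between the mice of a group and, for sparse genes, single cells limit the precision further. Binomial intervals (Clopper-Pearson) and counts cover counting error only. UMIs count molecules, so no division by length was made. The members, lists, markers and motifs were chosen with earlier results of these data known. All 10 members are reported. From each list up to 4 genes past the threshold, by p, are named, or up to 2 where none passed; not all are described, and 1 of the called genes is not reported here. Genes of like pattern are the 8 with the highest r among those with at least 20 CPM in macrophage-like cells.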

Additional observations from a re-analysis of the deposited data

Results flagged for a closer look

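Cells outside every group comparison carried the genes at high levels. The unnamed cluster M7 had 10982 CPM of Retnla. The unnamed cluster M13, of low depth, had 10770 CPM of Apoe. The unnamed cluster M11, in which all cells had UMIs of lymphocyte markers, had 1078 CPM of C1qa. The remaining cells, outside the myeloid clusters and the lymphocytes, had 470.5 CPM of Cd63. The part of free RNA and doublets in these levels was not tested. No group difference in them was tested.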

How the results depend on the processing

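The number of members called in macrophage-like cells was 1, beside 210 of all 7888 genes tested. It was 0 with HTODemux (270 of 8107 genes), with stricter cells (277 of 7738) and without the low-depth cluster M6 (127 of 7693). It was 2 without a filter (510 of 20176 genes), at myeloid resolution 2 (243 of 7933) and with monocyte-like and C1q-rich unnamed cells added (109 of 10035). With the replicate block it was 3 (368 of 7888). Without M4 it stayed 1 (227 of 6709), but this was a member other than C1qb, which missed the threshold there. The number of all genes called thus moved with the setting as well. C1qb stayed positive under all 19 alternatives run (log2 fold change 0.62 to 1.05); it missed the threshold with HTODemux (adjusted p = 0.0547) and stricter cells (0.0734) besides the 4 named above. In monocyte-like cells the count was 0, beside 23 of 6217 genes. It was 2 with HTODemux (29 of 6041 genes) and 1 without a filter (128 of 17375). In type 1 conventional dendritic cell-like cells it was 0, beside 64 of 7551 genes. There it was 1 with DESeq2 (42 of 7551) and with HTODemux (127 of 7046). Without a filter it was 2 (238 of 18756), and with the block 3 (159 of 7551). In type 2 it stayed 0 in all fits that kept every mouse. In lymphocytes, 1 beside 193 of 16553 genes became 2 without a filter (962 of 30880). For the difference between the classes it stayed 0 with RLE factors (1 of 7535 genes) and without a filter (106 of 21529). Counts also moved with a mouse left out, and are not given, since 1 mouse then stands for a group.

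Directions that turned belonged to values that never passed when turned. Pf4 in macrophage-like cells ranged from -0.14 to 0.27 with a mouse left out and was -0.15 with stricter cells, -0.0389 with members among the variable genes, -0.0545 without M6 and -0.0598 with classes joined. Ms4a7 ranged from -0.29 to 0.42 with a mouse left out and was -0.00357 without a filter, -0.0802 with HTODemux, -0.15 with the stricter tag rule, -0.16 without Scrublet, -0.33 with stricter cells, -0.000428 at resolution 2, -0.10 with members among the variable genes and -0.000394 without M6. Retnla ranged from -0.20 (without Trpv1-ADC 2) to 2.60 with a mouse left out, and from 0.24 to 3.58 under the other settings. In monocyte-like cells, with a mouse left out, C1qc ranged from -0.32 to 0.50, Mrc1 from -0.94 to 0.17 and Cd63 from -1.94 to 0.34. There C1qc was -0.0270 at resolution 2, and Cd63 was 0.28 with HTODemux and 0.27 with stricter cells. Mrc1 in type 1 conventional dendritic cell-like cells became 0.46 without Scrublet. The C1qb difference between classes ranged from -0.52 to 0.52 with a mouse left out, and the difference in the share with any C1q chain was -0.651 percentage points at 3000 UMIs. The causes were not tested. Levels in macrophage-like cells moved by less than 1 SD over mice under 6 alternatives (HTODemux, stricter tag, no Scrublet, stricter cells, resolution 2, members among the variable genes), except Pf4 with stricter cells (304.1 CPM, against a mean of 382 over the 4 mice).

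The same mouse numbers in both groups are only names: deviations of same-numbered mice correlated at 0.08 in macrophage-like cells. Cells without lymphocyte UMIs were too few for a fit (14 in a mouse). Only 2 mice a group and, for sparse genes, single cells limit every value.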
